A study of Arabidopsis thaliana with 2 samples.

Results

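The genes described here code for proteins of the cytosolic ribosome of Arabidopsis thaliana. They were chosen as the 60 gene identifiers of a list of 40S and 60S ribosomal protein genes, without mitochondrial or plastid ones, and all 60 were found among the 33557 genes of the expression table. Of the 60, 24 code for proteins of the small (40S) subunit and 36 for proteins of the large (60S) subunit, together 48 different ribosomal proteins, of which 10 had several genes in the list. The RefSeq annotation gave 57 of the 60 the function of a structural constituent of the ribosome, and named no mitochondrial or plastid ribosome in any of the 60 descriptions.

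RNA was measured in 1 library of drop pollen tubes, whose genotype label is drop1- drop2-, and in 1 library of wild type (WT) pollen tubes. The tubes had grown semi-in-vivo, out of a cut pollinated style and onto solid medium, and were cut off at 300 to 400 µm outside the style. Each library pooled the tubes of 2 stigmas and was made from polyadenylated RNA with Smart-seq2, so neither is a single cell nor a replicate of the other. Both samples carry a treatment text on grains of the double mutant. The genotype is therefore read from its own label, and the levels of the mutated genes were not used to check it. The values are the authors' FPKM, which by its name divides fragments by transcript length and by the library's mapped total. The column sums given below differ, which alone does not decide whether the libraries share a scale. FPKM is a level that can be set side by side between genes of different length. With 1 library per genotype there is no replicate check, and no test was made of any difference below.

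A cytosolic ribosome is built from ribosomal RNA and one copy of most ribosomal proteins, so the proteins are needed in like numbers. The small subunit reads the mRNA, and the large subunit joins amino acids and holds the tunnel through which the new chain leaves. In Arabidopsis each ribosomal protein is coded by a small family of closely related genes. Pollen carries ribosomes and mRNAs made before germination, and tube growth depends on translation.

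Ribosomal protein genes of Arabidopsis are known for short promoter elements, the telo box (AAACCCTA) and site II (GGCCCA). Both were searched on both strands from 250 bases before to 50 bases after the annotated transcript start. The promoters of 4 genes that recur in the results are printed because the printed stretches hold the elements in different combinations. These are the gene of the highest level in drop (SAC52, AT1G14320) and one with nearly equal levels (STV1, AT3G53020). The others are the gene of the highest level in WT (AT1G77940) and the most abundant gene of RPS9 (AT5G15200). Each line gives the 180 bases before the start, 5′ to 3′ on the gene's strand, from the RefSeq genome TAIR10.1, with the elements in capitals. They lie at chr1:4887934-4888113 (plus strand, SAC52), chr3:19662026-19662205 (minus strand, STV1), chr1:29305412-29305591 (minus strand, AT1G77940) and chr5:4936430-4936609 (minus strand, AT5G15200).
SAC52: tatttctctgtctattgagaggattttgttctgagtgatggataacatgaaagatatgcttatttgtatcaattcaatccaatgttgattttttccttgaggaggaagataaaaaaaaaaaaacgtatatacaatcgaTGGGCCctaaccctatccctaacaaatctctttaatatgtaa
STV1: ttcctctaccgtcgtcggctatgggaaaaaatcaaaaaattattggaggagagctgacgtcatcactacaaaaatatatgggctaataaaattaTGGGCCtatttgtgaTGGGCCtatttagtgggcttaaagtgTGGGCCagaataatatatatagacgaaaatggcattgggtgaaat
AT1G77940: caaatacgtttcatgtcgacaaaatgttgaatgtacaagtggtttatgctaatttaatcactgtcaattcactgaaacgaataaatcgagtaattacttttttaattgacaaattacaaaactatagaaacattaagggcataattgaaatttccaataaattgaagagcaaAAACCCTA
AT5G15200: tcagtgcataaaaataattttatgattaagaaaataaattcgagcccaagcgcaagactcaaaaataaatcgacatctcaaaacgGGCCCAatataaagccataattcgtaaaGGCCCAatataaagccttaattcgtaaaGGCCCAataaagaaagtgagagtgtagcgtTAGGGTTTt
SAC52 and STV1 show site II as its reverse complement TGGGCC, once in SAC52 and in 3 places in STV1. AT1G77940 shows a telo box at the very end of the stretch, and AT5G15200 shows 3 site II elements followed by a reversed telo box. In the whole searched window STV1 also held 1 telo box, outside the printed stretch. Its counts there, 1 telo box and 3 site II elements, were the same as those of AT5G15200.

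Among the 60 genes, 29 (48.3%) held a telo box and 43 (71.7%) a site II element, and 22 held both. A further 72 genes, matched to the 60 by coding sequence, held a telo box in 44 promoters (61.1%) and site II in 46 (63.9%). Over all 27443 protein-coding genes the shares in the same window were 6.22% for the telo box and 15.5% for site II. Only 10 of the 60 (16.7%) held neither, while 79.95% of all promoters did. The elements were found in both subunits, with site II in 17 of 24 genes of the 40S subunit and in 26 of 36 of the 60S subunit. A match says only that the letters are in the window. The genes with the lowest ratios shared no single combination: AT1G77940 and AT2G37190 held a telo box and no site II, RPS10B (AT5G41520) and ATL5 (AT3G25520) held both, and RPL18 (AT3G05590) and AT3G09200 held site II only.

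**Figure D1:**
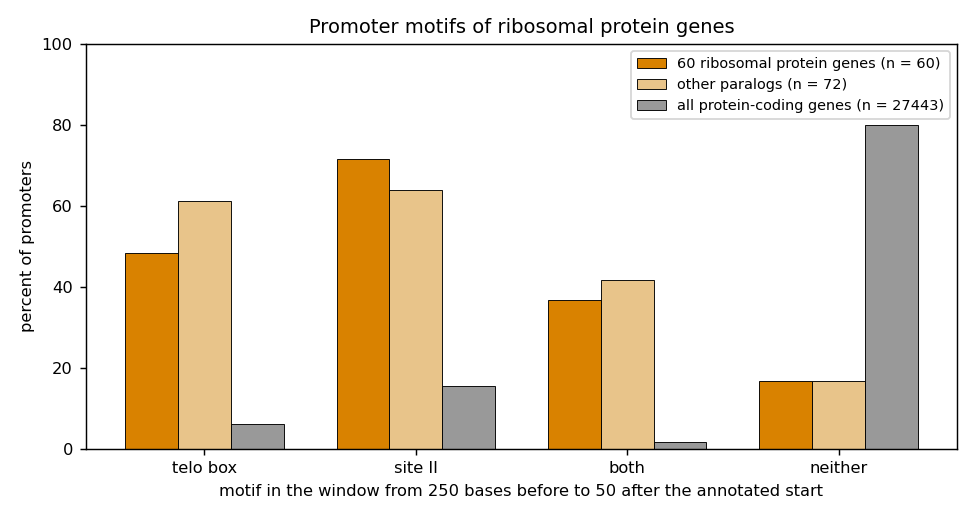
Percent of promoters with the telo box, site II, both or neither (y axis). Bars stand for the 60 ribosomal protein genes, 72 further genes matched to them by coding sequence, and all 27443 protein-coding genes. Site II is in 71.7% of the 60 promoters and in 15.5% of all promoters.

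Most ribosomal protein transcripts were lower in drop. The FPKM was lower in drop for 56 of the 60 genes, where 55.9% of the 16733 genes above 0 in at least 1 library were lower. The median level of the 60 genes was 5.30 FPKM in drop and 12.4 FPKM in WT, and the median gene stood at 46.3% of its WT value, with quartiles of 33.8% and 57.6%. Between 25% and 75% of the WT value lay 44 of the 60 genes, and the whole range was 0% to 186%. The share of all genes between 25% and 75% was not computed. The exceptions in direction were SAC52 (RPL10), AT1G15250 (RPL37), AT5G58420 (RPS4) and STV1 (RPL24), which were higher in drop as deposited.

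Differences are given as log2 of drop over WT after adding 1 FPKM to each, which makes low genes look closer than they are. A gene past 2-fold on this scale is called 2-fold lower or 2-fold higher. So called, 30 of the 60 genes were 2-fold lower in drop and 0 were 2-fold higher, where 17.9% of the 16733 genes above 0 were 2-fold lower and 15.6% 2-fold higher. The median difference was -0.99 over the 60 genes and -0.12 over the 16733 genes. Among genes of like level, those whose mean log2(FPKM + 1) lay between the quartiles of the 60 (2.50 and 3.90), 15 of 30 ribosomal protein genes and 28.8% of 1884 genes were 2-fold lower. In that band the quartiles of the difference were -1.34 and -0.78 for the ribosomal protein genes and -1.21 and 1.07 for all genes, so the ribosomal protein genes had the narrower spread. At least 10 FPKM in at least 1 library was reached by 38 of the 60, but 23 of these reached it only in WT, and such genes had to be lower in drop. In the 15 genes of at least 10 FPKM in both libraries 13 were lower and 8 were 2-fold lower in drop, with a median of -1.01, while the 1935 such genes of the whole table had a median of 1.08.

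**Figure D2:**
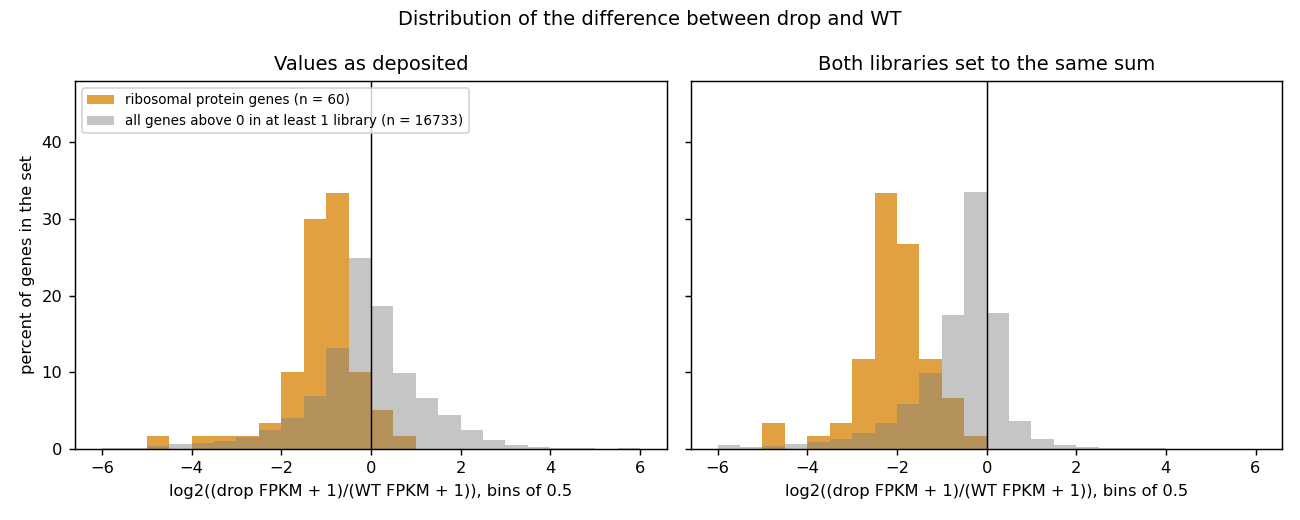
Percent of genes (y axis) in bins of the difference between drop and WT on the log2(FPKM + 1) scale (x axis), with differences beyond 6 put in the end bins, for the 60 ribosomal protein genes and the 16733 genes above 0 in at least 1 library, as deposited and at equal sums. As deposited the 60 genes have a median of -0.99 and all genes one of -0.12.

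The size of the difference depends on how the libraries are scaled. The deposited columns summed to 3668030 FPKM in drop and 1299600 FPKM in WT, although 7331 genes reached 1 FPKM in drop and 8633 in WT. Without a minimum level, 30 of the 60 genes were 2-fold lower in drop as deposited, as given above. At equal sums the count was 55 of the 60 genes, beside 25.3% of the 16733 genes above 0 in at least 1 library. It was 54 of 60 beside 25.6% with a median ratio of 1, 26 of 60 beside 14.7% with quantile normalization, and 54 of 60 beside 25.7% with equal sums of trimmed libraries. None of the 60 was 2-fold higher under any of these, where the shares of the 16733 were 2.35% at equal sums, 4.61% with the median ratio, 16.9% with quantile normalization and 4.56% with trimmed sums. Under all 5 scalings jointly, 55 of the 60 genes were lower in drop beside 47.8% of the 16733, 25 of 60 were 2-fold lower beside 14.1%, and 0 were higher beside 23.7%.

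A minimum of 10 FPKM in at least 1 library leaves 38 genes, and it favours lower calls for the 23 that reached it only in WT. With it, 22 of 38 were 2-fold lower in drop and none 2-fold higher, beside 27.9% and 45.4% of the 3633 such genes of the whole table. The count was 37 at equal sums beside 43%, 36 with the median ratio beside 38.3%, 22 with quantile normalization beside 28.8%, and 36 with trimmed sums beside 38.3%. At 4-fold 5 of 38 (13.2%) were called lower, beside 19.7% of the 3633, and with a pseudocount of 10 again 5 of 38, beside 20.5%. With a pseudocount of 0.1 the count was 26 of 38 beside 28.5%, and at a minimum of 50 FPKM 2 of 4 beside 20.3%.

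A share needs no factor between the libraries, although quantile normalization, which reshapes the values of each library, does change it. The 60 genes together held 539 FPKM in drop and 1282 FPKM in WT. This was 0.0147% of the summed FPKM in drop and 0.0987% in WT, a WT share 6.72 times that of drop, and 2.84 times after quantile normalization. Without the 50 genes of highest mean FPKM and the organelle genes the shares were 0.0466% in drop and 0.240% in WT. The 40S genes held 0.00466% in drop and 0.0326% in WT, and the 60S genes 0.0100% in drop and 0.0661% in WT.

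Lists of marker genes for cell types and tissues were read as well, and the cells that gave these transcripts were not identified. The counts below stand beside 17.9% 2-fold lower and 15.6% 2-fold higher in drop, as deposited, among the 16733 genes above 0 in at least 1 library. A pollen tube normally carries a pair of sperm cells, and whether the drop tubes did was not checked. Markers of the sperm cells were 2-fold lower in drop for 11 of 13 genes, and summed to 3451 FPKM in drop and 51557 FPKM in WT. Of these, DAZ1 was listed at 0 in drop and GEX2 was almost at 0 in WT. Photosynthesis genes, markers of green tissue, were 2-fold lower for 7 of 10, summing to 19.9 FPKM in drop and 143 FPKM in WT, with RBCS1B, RBCS2B and LHCB1.1 at 0 in drop. Markers of style and carpel were 2-fold lower for 0 of 11 and higher for 1 (BEE3, listed at 0 in WT), with CRC, HEC1, HEC2, HEC3 and STY1 at 0 in both libraries. The most abundant of them, HAF, had 55.1 FPKM in drop and 43.8 FPKM in WT. Vegetative tube markers were 2-fold higher in drop for 16 of 16 genes as deposited and for 3 with equal sums, and held 2.41% of the summed FPKM in drop and 2.46% in WT. These are abundant transcripts, and abundant genes were often higher in drop as deposited. Of the 3633 genes of at least 10 FPKM in at least 1 library, 45.4% were 2-fold higher as deposited and 8.64% with equal sums. At a minimum of 50 FPKM the share as deposited was 63.7% of 1471 genes. The part of sperm or green tissue RNA in the ribosomal protein difference was not tested. In pooled tubes, fewer cells of a type and less RNA per cell cannot be told apart.

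The levels of the 60 genes were far from equal. They ran between 0.437 and 100.3 FPKM in drop, leaving out 2 genes listed at 0, and between 0.638 and 244 FPKM in WT. The SD of log2 FPKM was 1.45 in drop (58 genes) and 1.45 in WT (60 genes). The upper quartile was 2.98 times the lower in drop and 3.04 times in WT, against 17.7 times in drop and 15.2 times in WT over all genes above 0. Seen per library, 15 genes in drop and 38 in WT reached 10 FPKM, and 6 genes in drop and 1 in WT stayed under 1 FPKM. The median of the 60 lay above 71.2% of the detected genes in drop and above 83.6% in WT. The order of the genes was partly kept: across the 60 genes of these 2 libraries, log2(FPKM + 1) in drop and in WT gave 0.74 as Pearson's r and 0.80 as Spearman's rho, a description over genes that are not independent replicates.

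**Figure D3:**
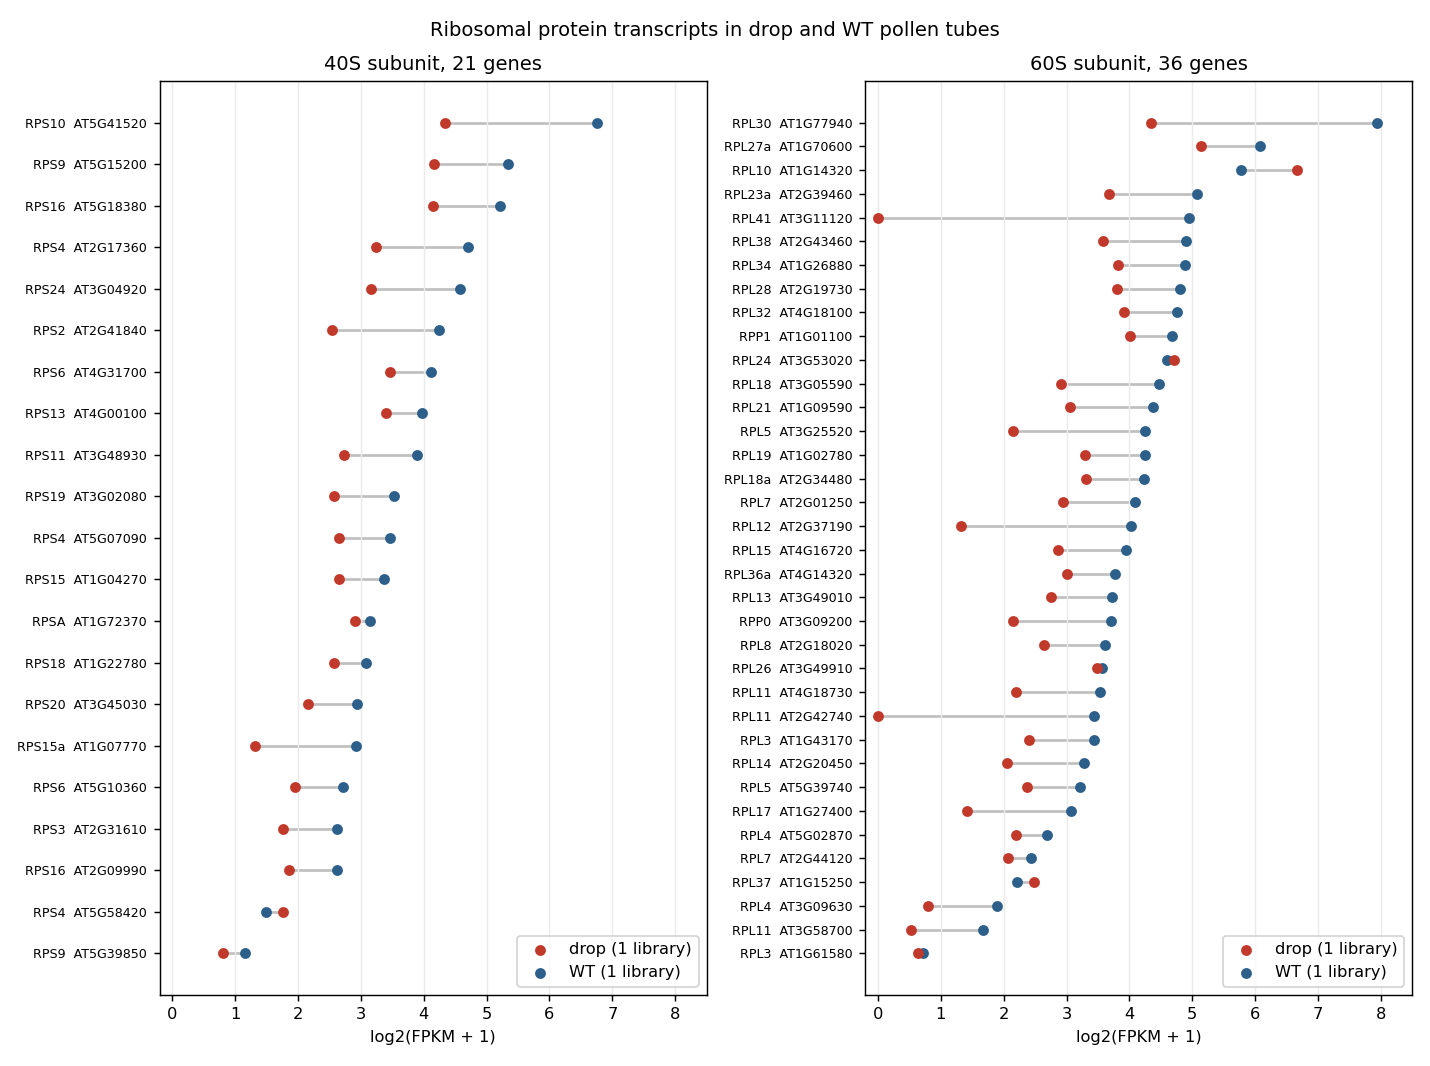
Level of 57 of the 60 genes as log2(FPKM + 1) (x axis) in the drop and the WT library, with 40S genes at left and 60S genes at right, ordered by the WT level. The drop point lies left of the WT point for 53 of the 57 genes, and AT3G11120 (RPL41) and AT2G42740 (RPL11) lie at 0 in drop.

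The counts by place in the ribosome, here and below, stand beside shares over the 16733 genes above 0 in at least 1 library. Of those, 55.9% were lower in drop and 17.9% were 2-fold lower as deposited. Around the catalytic centre of the large subunit, where the peptide bond is made, 5 of 6 genes were lower in drop and 2 by 2-fold or more, with a median difference of -0.73. SAC52 codes for RPL10, a protein near this centre that joins the 60S subunit late in its assembly. It had 100.3 FPKM in drop and 53.9 FPKM in WT, a difference of 0.88, and was the member with the highest level in drop. Its direction turned with the scaling: with equal sums the difference was -0.58, and with quantile normalization 0.31. RPL3 sits next to the centre and has a pair of genes. RP1 (AT1G43170) had 4.32 FPKM in drop and 9.78 FPKM in WT, and RPL3B (AT1G61580) had 0.562 FPKM in drop and 0.638 FPKM in WT. RPL4 also reaches into the exit tunnel, and both of its genes were low. AT5G02870 had 3.59 FPKM in drop and 5.44 FPKM in WT, and AT3G09630 had 0.738 FPKM in drop and 2.72 FPKM in WT. EMB2296 (AT2G18020) codes for RPL8 and had 5.21 FPKM in drop and 11.2 FPKM in WT.

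RPL5 and RPL11 bind the 5S ribosomal RNA and enter the large subunit with it. All 5 of their genes were lower in drop, 4 of them by 2-fold or more, with a median of -1.34. Of the RPL5 genes, ATL5 had 3.42 FPKM in drop and 18.0 FPKM in WT (-2.11), and RPL5B (AT5G39740) had 4.17 FPKM in drop and 8.25 FPKM in WT (-0.84). As listed, the leading gene was not the same: RPL5B supplied 55.0% of the RPL5 sum in drop, and ATL5 68.6% in WT. The lead in drop was narrow, resting on about 23 estimated fragments for RPL5B and 19 for ATL5. The RPL11 gene RPL16A (AT2G42740) was listed at 0 in drop and had 9.85 FPKM in WT. RPL16B (AT4G18730) had 3.59 FPKM in drop and 10.6 FPKM in WT. AT3G58700 had 0.437 FPKM in drop and 2.18 FPKM in WT, about 2 and 17 estimated fragments. A 0 can be a failed estimate between such close copies, so no fold is given against it. Both RPL16A and AT3G58700 are among the 4 counted as 2-fold lower, so that count rests in part on weak values.

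The stalk of the large subunit calls in the elongation factors. All 3 stalk genes were lower in drop, 2 of them by 2-fold or more, with a median of -1.55. AT2G37190, which codes for RPL12 at the base of the stalk, had 1.51 FPKM in drop and 15.3 FPKM in WT, about 6 and 105 estimated fragments. AT3G09200 codes for RPP0, the anchor of the stalk, and had 3.43 FPKM in drop and 12.0 FPKM in WT. AT1G01100 codes for the acidic protein RPP1 and was less far apart, with 15.2 FPKM in drop and 24.7 FPKM in WT.

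At the exit tunnel, where the growing chain emerges, 4 of 4 genes were lower in drop and 2 by 2-fold or more, with a median of -1.18. RPL23AA (AT2G39460), which codes for RPL23a beside the tunnel exit, had 11.7 FPKM in drop and 32.6 FPKM in WT. AT1G27400 codes for RPL17 and had 1.66 FPKM in drop and 7.45 FPKM in WT. AT3G49910, the RPL26 gene, was nearly level, with 10.2 FPKM in drop and 10.9 FPKM in WT.

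Among the other 18 genes of the large subunit the differences lay between -3.60 and 0.27, leaving out AT3G11120 at 0 in drop, with 10 of them lower by 2-fold or more and a median of -1.04. AT1G77940 codes for RPL30 and had 19.2 FPKM in drop and 244 FPKM in WT, which is 7.87% of the WT value and a difference of -3.60, from about 57 estimated fragments in drop and 1258 in WT. It was the most abundant of the 60 in WT and lay below SAC52, AT1G70600, STV1 and RPS10B in drop. AT3G11120, a gene of the very small protein RPL41, was listed at 0 in drop and had 29.9 FPKM in WT. RPL18 had 6.53 FPKM in drop and 21.1 FPKM in WT (-1.56). AT1G70600 codes for RPL27a and had 34.3 FPKM in drop and 66.4 FPKM in WT (-0.93). The pair of RPL7 genes differed in level: AT2G01250 had 6.69 FPKM in drop and 16.0 FPKM in WT, and AT2G44120 had 3.19 FPKM in drop and 4.43 FPKM in WT. AT4G14320 codes for RPL36a and had 7.03 FPKM in drop and 12.6 FPKM in WT. STV1 codes for RPL24, known in Arabidopsis for letting ribosomes resume translation after short upstream reading frames. Its values were 25.0 FPKM in drop and 23.3 FPKM in WT, a difference of 0.10 as deposited, -0.00 with quantile normalization and -1.27 with equal sums. AT1G15250, a minor RPL37 gene, had 4.57 FPKM in drop and 3.62 FPKM in WT, a difference of 0.27 as deposited and -0.75 with equal sums.

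In the small subunit, 23 of 24 genes were lower in drop and 10 were 2-fold lower, with a median of -0.84, against 20 of 36 and a median of -1.05 in the large subunit. The genes of the mRNA path and the head of the subunit were lower in drop in 12 of 12 cases and 2-fold lower in 6, with a median of -0.97. RPS10B, which codes for RPS10 at the head, had 19.3 FPKM in drop and 107 FPKM in WT, a difference of -2.42 and the largest of the 24. AT2G41840 codes for RPS2 at the mRNA entry and had 4.79 FPKM in drop and 17.9 FPKM in WT (-1.70). RPS3 is its neighbour at the entry, and its member AT2G31610 had 2.38 FPKM in drop and 5.15 FPKM in WT. RPS9 keeps decoding accurate, and its genes differed widely in level: AT5G15200 had 16.9 FPKM in drop and 39.7 FPKM in WT (-1.18), and AT5G39850 had 0.746 FPKM in drop and 1.24 FPKM in WT. The RPS16 gene AT5G18380 had 16.7 FPKM in drop and 36.2 FPKM in WT, and its copy AT2G09990 had 2.62 FPKM in drop and 5.13 FPKM in WT.

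Among the other 12 genes of the small subunit, 11 were lower in drop and 4 by 2-fold or more, with a median of -0.79. RPS6, the main ribosomal target of S6 kinase, has a pair of genes. The gene named RPS6 (AT4G31700) had 10.0 FPKM in drop and 16.3 FPKM in WT (-0.66), and EMB3010 (AT5G10360) had 2.86 FPKM in drop and 5.54 FPKM in WT. The 3 RPS4 genes did not share a direction as deposited and did with equal sums. AT2G17360 had 8.44 FPKM in drop and 25.0 FPKM in WT, AT5G07090 had 5.29 FPKM in drop and 10.1 FPKM in WT, and AT5G58420 had 2.38 FPKM in drop and 1.82 FPKM in WT. The difference of AT5G58420 was 0.26 as deposited and -0.54 with equal sums, from about 11 estimated fragments in drop and 15 in WT. RPS13A (AT4G00100) had 9.57 FPKM in drop and 14.7 FPKM in WT (-0.57). P40 (AT1G72370) codes for RPSA and had 6.53 FPKM in drop and 7.87 FPKM in WT.

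The levels of single genes are best read within their families, because close copies can share fragments. How many fragments were shared was not measured. The coding sequences of 72 further genes matched those of the 60 at 70% identity or more over at least 80% of both, with a median identity of 85.5%. The first 120 coding bases of a pair of close copies are printed to show how much text a short fragment has to tell them apart, with the bases that differ in capitals. In RPL10, SAC52 and SAG24 (AT1G66580) differ at 9 of the 120 bases. In RPS16, AT2G09990 and AT5G18380, which are 98.2% identical over the coding sequence, differ at 3.
SAC52: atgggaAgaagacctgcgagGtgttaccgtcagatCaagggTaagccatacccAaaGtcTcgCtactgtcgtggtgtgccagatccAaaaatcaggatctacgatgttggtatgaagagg
SAG24: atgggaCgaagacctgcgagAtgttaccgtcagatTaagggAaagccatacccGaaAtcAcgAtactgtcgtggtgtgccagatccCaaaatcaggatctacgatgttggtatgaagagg
AT2G09990: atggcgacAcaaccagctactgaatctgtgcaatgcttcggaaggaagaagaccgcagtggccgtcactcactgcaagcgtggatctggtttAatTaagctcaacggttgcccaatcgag
AT5G18380: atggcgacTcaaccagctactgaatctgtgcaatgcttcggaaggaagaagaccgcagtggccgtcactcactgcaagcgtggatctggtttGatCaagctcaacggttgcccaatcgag

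Of the 72 further genes, 52 were lower in drop, 8 higher and 12 at 0 in both, and 26 were 2-fold lower and 2 were 2-fold higher. Among the 16733 genes above 0 in at least 1 library, 17.9% were 2-fold lower and 15.6% 2-fold higher. With the 60 genes and the 72 matched genes added up by protein, 47 of the 48 ribosomal proteins had a lower sum in drop as deposited. Family genes that missed the match are not in these sums. The median sum was 13.8 FPKM in drop and 32.4 FPKM in WT, and the median protein stood at 44.3% of WT. RPL10 was the exception, with 1496 FPKM in drop and 734 FPKM in WT. Nearly all of it came from SAG24, a gene outside the 60, which had 1395 FPKM in drop and 679 FPKM in WT and held 93.3% of the RPL10 sum in drop and 92.5% in WT. With equal sums SAG24 too was lower in drop, at -0.46. The 129 genes of the other 47 proteins held 0.0225% of the summed FPKM in drop and 0.166% in WT.

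In 46 proteins with several genes, the same gene was the most abundant in both libraries for 38. Its median share was 62.2% in drop and 67.2% in WT, and 3 proteins in drop and 7 in WT drew at least 90% from 1 gene. The 5 proteins with the lowest drop sums relative to WT drew between 78.2% and 96.1% of their WT sum from 1 gene. A leading gene alone did not set a protein apart, since RPS9 drew 97.0% of its WT sum from 1 gene and stood at 43.1% of WT. RPL30 summed to 36.8 FPKM in drop and 283 FPKM in WT (13.0%), and its other gene AT3G18740 had 17.6 FPKM in drop and 38.8 FPKM in WT. RPL37 rested on AT1G52300, with 16.7 FPKM in drop and 191 FPKM in WT, which was 59.9% of the protein's sum in drop and 91.5% in WT. RPL15, a core protein of the large subunit, rested on AT4G17390, with 6.81 FPKM in drop and 51.6 FPKM in WT. RPS10 summed to 21.3% of its WT value and RPS13 to 27.4%, the second resting on AT3G60770 with 12.6 FPKM in drop and 66.1 FPKM in WT.

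In 8 proteins the leading gene was not the same. Some of these leads were narrow: for RPS15a in drop, AT5G59850 had 3.94 FPKM and AT3G46040 had 3.89 FPKM. RPL12 drew most from AT3G53430 in drop, with 6.06 FPKM in drop and 7.93 FPKM in WT, and from AT2G37190 in WT. RPP1 drew most from AT4G00810 in drop, a gene with 26.0 FPKM in drop and 20.6 FPKM in WT, and from AT1G01100 in WT. RPL34 drew most from AT1G69620 in drop, with 22.5 FPKM in drop and 23.4 FPKM in WT. RPL11 and RPL41 kept their leader, whose share was larger in drop, where a copy seen in WT was listed at 0. In RPL11 the gene AT5G45775, with 7.14 FPKM in drop and 11.5 FPKM in WT, held 63.9% of the sum in drop and 33.8% in WT. RPL16A was listed at 0 in drop and held 28.8% in WT, while RPL16B held 32.2% in drop and 31.1% in WT. In RPL41 the genes AT1G56045 (31.5 FPKM in drop, 36.5 FPKM in WT) and AT3G56020 (19.0 FPKM in drop, 28.5 FPKM in WT) made up the drop sum, in which AT3G11120 was listed at 0. Both had larger shares in drop: AT1G56045 62.3% in drop and 38.4% in WT, AT3G56020 37.7% in drop and 30.0% in WT.

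**Figure D4:**
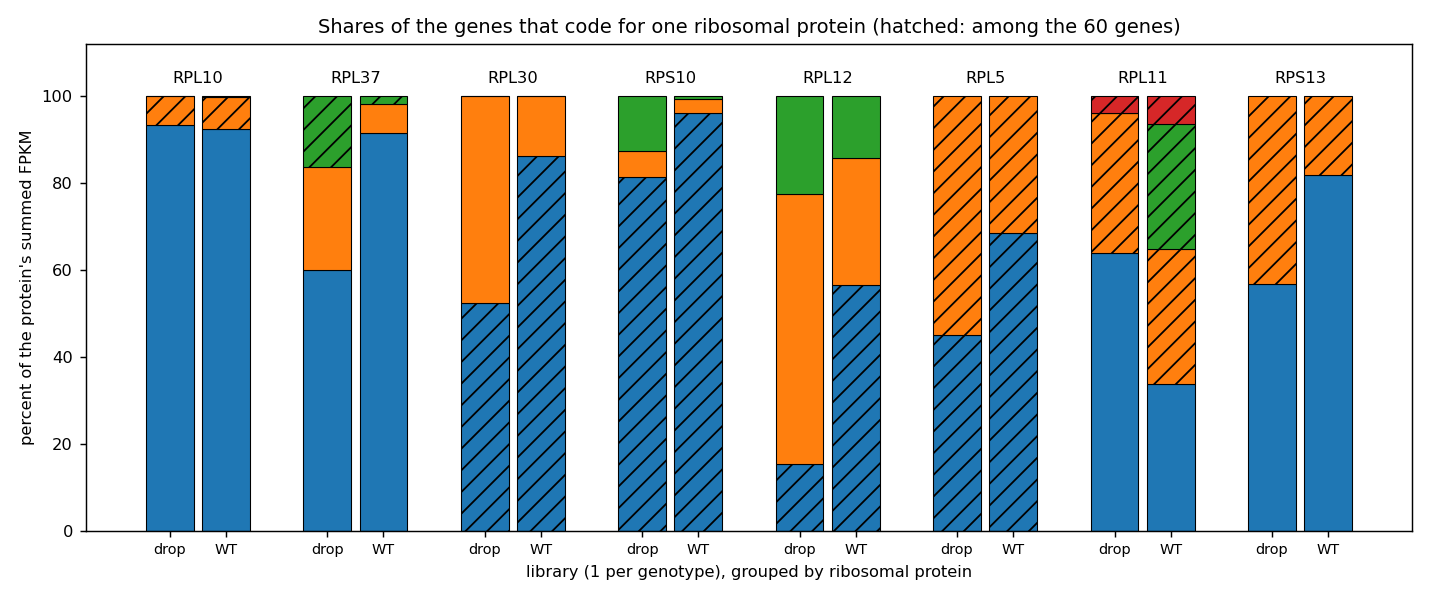
Percent of a ribosomal protein's summed FPKM (y axis) held by each of its genes in drop (left bar) and WT (right bar) for 8 proteins; each colour is 1 gene in the order of its WT level and hatching marks genes among the 60. RPL10 rests on 1 gene in both libraries (93.3% in drop, 92.5% in WT), whereas the leading gene of RPL30 holds 52.3% in drop and 86.3% in WT.

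Genes that work with the ribosome were also read. For the lists here and below, 55.9% of the 16733 genes above 0 in at least 1 library were lower in drop as deposited. On the same values 17.9% of them were 2-fold lower and 15.6% 2-fold higher. As deposited the 5 translation elongation factor genes were all lower in drop, 2 by 2-fold or more, with a median of -0.45. The eEF1A gene AT5G60390, whose protein brings aminoacyl-tRNA to the ribosome, had 19.6 FPKM in drop and 42.9 FPKM in WT (-1.09). LOS1 (AT1G56070) codes for eEF2, which moves the ribosome along the mRNA, and had 3.25 FPKM in drop and 4.12 FPKM in WT, a difference of -0.27 as deposited and 0.05 with quantile normalization. Of 9 ribosome biogenesis factor genes, 8 were lower in drop as deposited, with a median of -0.51, and none reached 10 FPKM. By 2-fold or more 2 of the 9 (22.2%) were lower, near the 17.9% over all genes. Among them NUC-L1 (AT1G48920), a nucleolin of the nucleolus, had 3.22 FPKM in drop and 6.15 FPKM in WT. FIB1 (AT5G52470), a fibrillarin that methylates ribosomal RNA, had 7.05 FPKM in drop and 8.61 FPKM in WT. NOP56 and FIB2 were listed at 0 in drop and had 2.68 FPKM (NOP56) and 1.20 FPKM (FIB2) in WT.

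The TOR pathway, which couples nutrients to ribosome production, had higher values in drop for 4 of its 5 genes as deposited and for 2 with equal sums, with a median of 0.22 as deposited and -0.29 with equal sums. Among these, TOR (AT1G50030) and RAPTOR1 (AT3G08850) were near the floor. TOR had 0.217 FPKM in drop and 0.0449 FPKM in WT, with a difference of 0.03 at equal sums. RAPTOR1 had 1.02 FPKM in drop and 0.732 FPKM in WT. S6K2 (AT3G08720), a kinase of RPS6, was the gene past 2-fold as deposited and had 38.1 FPKM in drop and 4.56 FPKM in WT, a difference of 2.82 as deposited and 1.34 with equal sums. Its close copy S6K1 (AT3G08730) had 21.8 FPKM in drop and 33.3 FPKM in WT, a difference of -0.59 as deposited, -1.62 with the median ratio and -1.94 with equal sums. LST8-1 (AT3G18140), a subunit of the TOR complex, had 8.40 FPKM in drop and 6.22 FPKM in WT, a difference of 0.38 as deposited and -0.81 with equal sums. Of the 9 genes described as mitochondrial ribosomal proteins, 4 were at 0 in both libraries. The other 5 were all lower in drop as deposited, 4 of them by 2-fold or more, and summed to 3.94 FPKM in drop and 15.7 FPKM in WT. With the zeros kept in, the median over the 9 was -0.23. Of the 6 plastid ribosomal protein genes 1 was at 0 in both libraries, 4 were lower and 2 by 2-fold or more, summing to 6.33 FPKM in drop and 20.3 FPKM in WT, with a median of -0.14 over the 6.

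**Figure D5:**
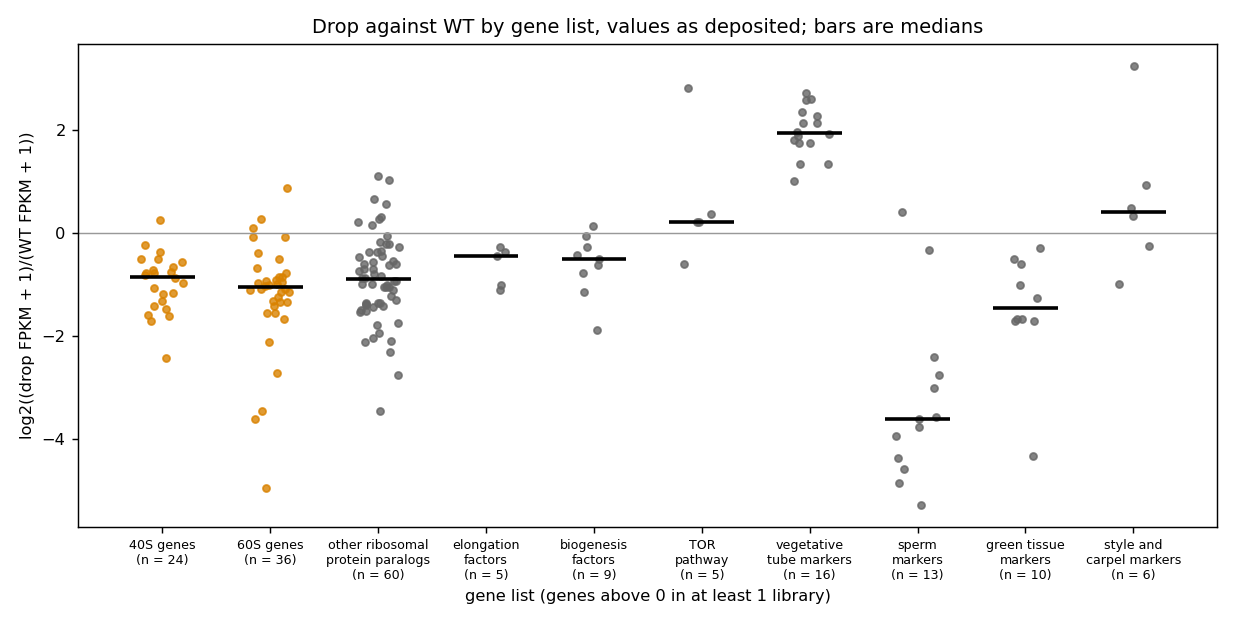
Difference between drop and WT on the log2(FPKM + 1) scale (y axis) for each gene above 0 in at least 1 library, by gene list (x axis), as deposited, with the median as a bar. The 40S and 60S genes have medians of -0.84 and -1.05, and the sperm markers one of -3.60.

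Depth was low for many of the genes and lower in drop. The most frequent low value of FPKM times length, among genes with 1 transcript of at least 3 kb, was taken as 1 fragment. That value was read from 29 genes in drop and 20 in WT. On this unit the median gene rested on about 24 fragments in drop and 95.5 in WT, and 26 genes in drop and 5 in WT rested on fewer than 20. These are estimates, and without molecular identifiers PCR copies count as separate fragments. The transcripts of the 60 were short, with a median annotated length of 1017.5 bases against 1638 bases for all genes above 0. Across the 60 genes the difference gave 0.29 as Pearson's r and 0.13 as Spearman's rho with length, and -0.39 and -0.35 with the WT level, which enters the difference itself.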

How the data were processed

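The authors deposited FPKM in 1 table with a column for each library. The submitters' processing notes name TopHat2 2.0.14, Cufflinks 2.2.1 and the build TAIR10. No settings of these tools and no annotation release were stated. The column sums differ, but FPKM also divides by transcript length, so unequal sums alone do not show different scales. Whether the columns share a scale was not tested.

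The members and gene lists were chosen with earlier results of these data known. Differences were computed as log2 of FPKM with a pseudocount of 1, and a gene counted as higher or lower past 2-fold, with and without a minimum of 10 FPKM in at least 1 library. A group's n is 1 library, so no test was made. Scalings tried were as deposited, equal sums, a median ratio of 1, quantile normalization, and equal sums without the 50 highest and the organelle genes. The calling step was checked on simulated data.

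The naming rule took the 8 genes of highest and 8 of lowest mean FPKM, the 8 with the highest and 8 with the lowest difference among genes passing the minimum, and all genes of proteins with several members. Further paralogs could be named at 20% or more of their protein's sum. Members outside this rule, among them EMB2296, AT1G27400, RPL23AA, P40 and AT1G15250, were chosen after their values were seen, as were the printed promoters. The single values of 3 of the 60 genes are not reported here, though these genes are part of the counts and medians.

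Gene starts, symbols and sequences were read from RefSeq TAIR10.1. The 60 identifiers all matched it. No protein table was used, so paralogs were found by coding sequence (blastn 2.17.0) in place of the planned protein comparison. Python 3.11.15, pandas 2.3.3, numpy 2.4.6 and matplotlib 3.10.9 were used.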

Additional observations from a re-analysis of the deposited data

How the results depend on the processing

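None of the genes was 2-fold higher in drop under any setting tried, a count of 0 throughout. Among the 38 genes of at least 10 FPKM in 1 library, 22 were 2-fold lower in drop with a median of -1.08. The count was 26 with a pseudocount of 0.1, 22 with quantile normalization and 30 of 60 without the filter. It was 5 with a pseudocount of 10 and 5 at 4-fold, each 13.2% of the 38 beside 20.5% and 19.7% of all genes passing the filter, so there the contrast with all genes reversed. It was 2 of 4 genes at 50 FPKM, and 37, 36 and 36 with equal sums, the median ratio and trimmed equal sums. The median was -1.16 with a pseudocount of 0.1, -0.63 with one of 10, -1.68 at 50 FPKM, and -2.24, -2.04 and -2.05 under the last 3 scalings. These change drop relative to WT by a constant factor (-1.497, -1.11 and -1.11 on the log2 scale), and the median over all 3633 genes, 0.81 as deposited, was then -0.58, -0.24 and -0.24. Chosen after seeing the data, a minimum of 10 FPKM in both libraries left 8 of 15 2-fold lower, and leaving out SAC52 left 22. For the first of these no 2-fold share over all genes was computed. The median of the 40S genes minus that of the 60S genes was -0.09 with the filter, 0.21 without it, 0.01 with a pseudocount of 10 and -1.48 at 50 FPKM, so its sign depends on the filter and the pseudocount. The summed share without the 50 highest and organelle genes was 0.0466% in drop and 0.240% in WT. The SD of log2 FPKM among genes of at least 10 FPKM in the library was 0.825 in drop and 0.968 in WT, which the narrower range of levels brings. Of the 60 single differences, 51 moved past 1.5-fold with equal sums and 1 with quantile normalization.

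No paired analysis was possible because there was 1 library of drop and 1 of WT, and for the same reason neither could be left out. The limits are these: depth bounds the low genes, with 26 of 60 under 20 estimated fragments in drop. Copies can exchange fragments, so family sums are safer than single genes. Genotype cannot be told apart from anything else that differed between the 2 libraries, including sperm RNA.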
